A study of Mus musculus with 44 samples.

Results

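The 4 *Hox* clusters of the mouse hold 39 homeodomain transcription factor genes, and the CTCF sites within and around them were described in embryonic stem cells (ESCs) with and without *Setdb1*. The genes were those named *Hoxa*, *Hoxb*, *Hoxc* or *Hoxd* with a number in the GENCODE annotation of mm10, and each window ran from 100 kb before to 100 kb after the outermost genes of a cluster. Of the 59698 CTCF peaks in the list of *Setdb1* KO ESCs, 61 fell in the windows, as did 45 of the 44241 of WT ESCs. Of these, 44 sites were shared, 17 peaks were KO-only and 1 was WT-only, so that 62 sites were described. A peak counted as shared where it overlapped a peak of the other list by at least 1 bp.

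Binding of CTCF, a zinc finger protein that insulates genes and anchors chromatin loops, was measured by ChIP-seq in crosslinked ESCs of the strain TT2 (C57BL/6/CBA F1). In the conditional *Setdb1* KO cells, deletion of this H3K9 methyltransferase gene was induced with 800 nM 4-OHT for 4 days and the cells were harvested on day 6, whereas the WT cells carry the genotype label WT with no induction given for them. The question put to these data was whether loss of SETDB1 alters where CTCF binds, and here it was asked of the *Hox* clusters. The peak list of 1 library per condition was analysed, which leaves the spread between replicates unknown and allows no test of one condition against the other. Neither the deletion of *Setdb1* nor the ESC identity can be checked from CTCF peaks, since the lists hold no expression values.

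*Hox* genes specify position along the body axis, and within a cluster the order of the genes on the chromosome follows the order of their expression from head to tail. Genes of the groups 1 to 3 are called anterior here, those of groups 4 to 8 middle and those of groups 9 to 13 posterior. Most *Hox* genes are silent in ESCs and lie in Polycomb-marked chromatin, and CTCF sites between neighbouring genes are known as boundaries between the silent and the active part of a cluster during differentiation. The CTCF motif is asymmetric, and loops form preferentially between motifs that point towards each other. CpG methylation within the motif, above all at its positions 2 and 12, can hinder binding.

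Each list gives the fold enrichment over background and the p of every peak, from which the number of fragments over the summit was solved. This number, the pileup, is the level used throughout, and the ratio of pileups is that of *Setdb1* KO to WT. The median pileup was 37 over all WT peaks and 40 over all *Setdb1* KO peaks, and the lowest listed pileups were 9 and 8. Over the 41869 sites of the genome where a single peak of one list met a single peak of the other, the ratio had a median of 1.36 and quartiles of 1.17 and 1.61. In this ratio, stronger binding and a better enriched *Setdb1* KO library cannot be told apart. Intervals beside ratios are exact 95% intervals, those beside shares are Wilson 95% intervals, and both cover counting error only.

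The sequences under the strongest sites show what CTCF met in the clusters. The 20 bases with the best match to the CTCF motif within 50 bp of the summit are given for the 2 shared sites with the highest *Setdb1* KO pileup in each cluster body, 5′ to 3′ on the strand of the motif, from the RefSeq genome GRCm38. Capitals mark the 14-base core.
Hoxa5-Hoxa6: tctCCAGCGGGTGGCGCtcg
Hoxa10-Hoxa11: ccgCCACGAGATGGCGCact
Hoxb9-Hoxb13: aggCCAGAAGAGGGCGCcat
Hoxb5-Hoxb6: tcgCCGGGAGGTGGCGCgct
Hoxc10-Hoxc11: cagCTGCTAGGTGGCGCtgt
Hoxc8-Hoxc9: tgaACGCGAGGTGGCGCtgt
Hoxd8-Hoxd9: tggCCACTAGAGAGCGCtgt
Hoxd10: tgaTCTCTAGGCGGCGCtcg
All 8 hold a CpG at position 12 of the core, and 2 of them, *Hoxb5*-*Hoxb6* and *Hoxc8*-*Hoxc9*, hold another at position 2. The matches between *Hoxc10* and *Hoxc11* and within *Hoxd10* passed a lower motif threshold but not the main one. In order, the matches lie at chr6:52204654-52204673 (minus strand), chr6:52240536-52240555 (minus), chr11:96224002-96224021 (minus), chr11:96303242-96303261 (plus), chr15:102966569-102966588 (plus), chr15:102987590-102987609 (plus), chr2:74702392-74702411 (plus) and chr2:74694224-74694243 (minus).

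From the flanks of the clusters 5 motifs are shown, those of the 3 KO-only peaks with a called motif and of the 2 sites with the largest ratios, chosen after their values were seen.
Halr1 intron: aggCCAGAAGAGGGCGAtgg
Ttll6 intron: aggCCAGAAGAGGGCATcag
Hoxa anterior flank, KO-only: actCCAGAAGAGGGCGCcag
Hoxb posterior flank, KO-only: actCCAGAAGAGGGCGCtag
Hoxc posterior flank, KO-only: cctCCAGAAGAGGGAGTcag
All 5 begin their core with the same 11 bases, CCAGAAGAGGG, and all 5 lie in sequence that the genome marks as repeat, by 84.2% to 100% of the 101 bp around the summit. In order they lie at chr6:52107593-52107612 (minus), chr11:96160622-96160641 (plus), chr6:52122803-52122822 (plus), chr11:96122502-96122521 (minus) and chr15:102901243-102901262 (minus). Among the sites of the cluster bodies, 1 begins its core with this run, the *Hoxb9*-*Hoxb13* site shown above.

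CTCF sites were dense within the clusters and few in their anterior parts. *Hoxc* has no gene of groups 1 to 3, so that its anterior part is empty by definition. The bodies of the clusters, from the first to the last *Hox* gene, span 492 kb and held 33 *Setdb1* KO peaks and 26 WT peaks, or 6.71 and 5.29 per 100 kb, against 2.19 and 1.62 over the genome. By cluster, the *Setdb1* KO density was 6.65 per 100 kb in the *Hoxa* body on chromosome 6 (52155590 to 52260880) and 8.05 in *Hoxb* on chromosome 11 (96194316 to 96368256). It was 5.18 in *Hoxc* on chromosome 15 (102921103 to 103036852) and 6.20 in *Hoxd* on chromosome 2 (74668310 to 74765142). The flanks together had 3.5 per 100 kb in *Setdb1* KO. The *Hoxb* posterior flank had 10, more than the *Hoxb* body. Neighbouring shared sites of a body lay a median of 12.3 kb apart, and 19 of the 35 intervals between neighbouring coding spans held at least 1 shared site. The interval between *Hoxb9* and *Hoxb13*, the longest of the *Hoxb* cluster, held 6.

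**Figure D1:**
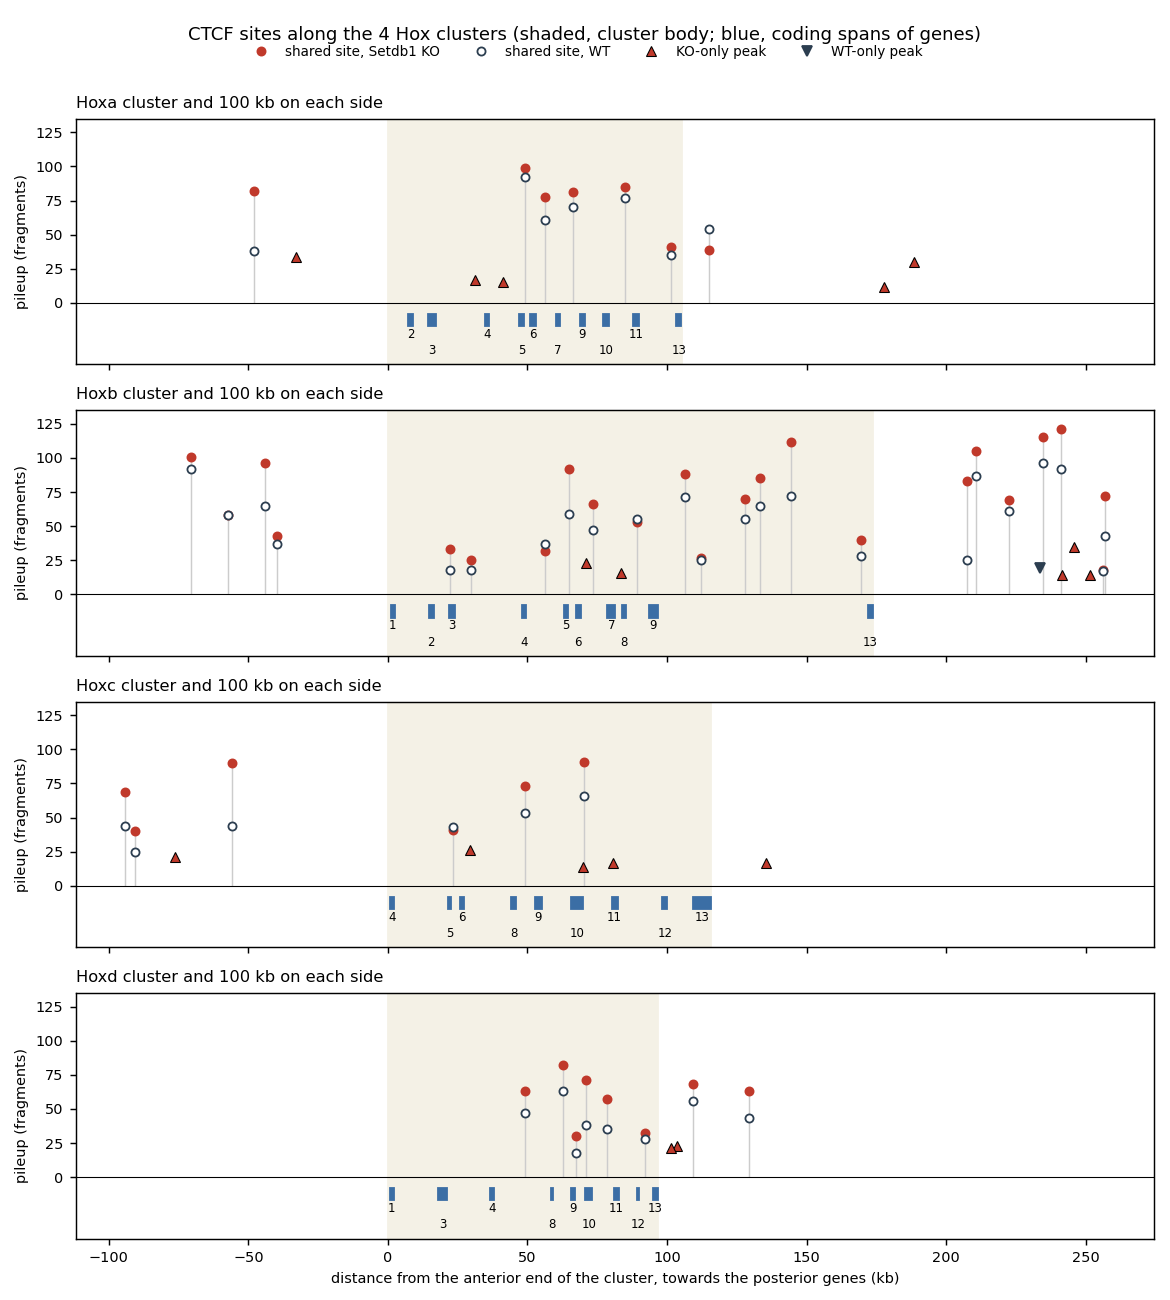
CTCF pileups (fragments over the summit, vertical axis) along the 4 *Hox* clusters, plotted against the distance in kb from the anterior end of the cluster, so that anterior genes are left and posterior genes right; filled circles are *Setdb1* KO and open circles WT at shared sites, triangles are peaks of 1 list, blue blocks are coding spans of the genes shown and shading is the cluster body. The most anterior site within a body lies at 31.1 kb in *Hoxa*, 22.1 kb in *Hoxb*, 23.2 kb in *Hoxc* and 49.2 kb in *Hoxd*.

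Each site was assigned once, to the *Hox* gene with the nearest coding span, so that a site in an exon or intron outside the coding span can belong to a neighbour. Of the 39 genes, 22 received a *Setdb1* KO peak and 19 a WT peak. Among the 8 anterior genes this was 1, *Hoxb3*, which acts in hindbrain patterning, against 10 of 15 middle and 11 of 16 posterior genes in *Setdb1* KO ESCs. In WT ESCs the counts were 1, 8 and 10. A gene without an assigned peak can still lie near one. By distance alone, 33 of the 39 genes (84.6%) had a *Setdb1* KO peak within 10 kb, against 75.3% of all protein-coding genes. The genes to which no peak of either list was assigned included *Hoxa2*, *Hoxa3*, *Hoxa7*, *Hoxa10*, *Hoxb1*, *Hoxb2*, *Hoxb4*, *Hoxb7*, *Hoxc4*, *Hoxc9*, *Hoxc12*, *Hoxc13*, *Hoxd1*, *Hoxd3*, *Hoxd4* and *Hoxd13*. Among these, *Hoxa7* and *Hoxa10* each had a shared site in an exon that lay nearer the coding span of the next gene, and introns of *Hoxa3*, *Hoxd3* and *Hoxd4* held sites assigned to other genes. *Hoxb9* received the most, with 4 shared sites. *Hoxa4*, *Hoxb3*, *Hoxb5*, *Hoxb6*, *Hoxb8*, *Hoxb13*, *Hoxc10* and *Hoxd9* received 2 each in *Setdb1* KO ESCs. The other 13 genes with a peak received 1. *Hoxa4*, *Hoxc6* and *Hoxc11* were assigned a peak in *Setdb1* KO ESCs and none in WT.

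Stretches without a CTCF peak covered the anterior ends, and others lay on the posterior sides of *Hoxa*, *Hoxc* and *Hoxd*. From the site between *Hoxd4* and *Hoxd8*, past *Hoxd4*, *Hoxd3* and *Hoxd1* and beyond the window, neither list had a summit over 249 kb. Of all distances between neighbouring summits in the genome, 95% were below 167 kb in *Setdb1* KO and below 221 kb in WT. The upper quartiles were 43.5 kb and 56.3 kb. At the anterior end of *Hoxb*, past *Hoxb2* and *Hoxb1*, the distance was 61.8 kb in *Setdb1* KO and 61.7 kb in WT. At that of *Hoxc*, past *Hoxc5* and *Hoxc4*, it was 79.0 kb and 78.9 kb. In these 3 clusters the anterior gap was alike in both lists. That of *Hoxd* exceeded the 95% value of the genome, and those of *Hoxb* and *Hoxc* lay between the upper quartile and that value. The longest gap of all lay on the posterior side of *Hoxd*, outwards from a site 32.7 kb from the cluster. It was 330 kb in WT and 93.9 kb in *Setdb1* KO, and reached beyond the window. On the posterior side of *Hoxc*, also reaching beyond the window, *Setdb1* KO had a gap of 93.7 kb.

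In *Hoxa* and at the posterior end of *Hoxc* the gaps of WT ESCs held KO-only peaks. The 3 gaps given here were taken as the longest of WT at their clusters, and each is shorter than 221 kb, the 95% value of WT. The whole *Setdb1* KO list holds 17209 KO-only peaks, and the share of WT gaps of the genome that hold one was not counted. In WT no summit lay over 97.1 kb from *Halr1* to the site at *Hoxa5*, which takes in *Hoxa2* to *Hoxa5*. In *Setdb1* KO, 3 KO-only peaks lay in this stretch, with pileups of 34, 17 and 15. At the posterior end of *Hoxc*, WT had no summit over 159 kb, which takes in *Hoxc11*, *Hoxc12* and *Hoxc13*, genes of the lumbar and sacral region and of the tail. In *Setdb1* KO this stretch held 2 KO-only peaks, each with a pileup of 17. On the posterior side of *Hoxa*, from the site beside the noncoding gene *Hottip* onwards, a WT gap of 144 kb held 2 KO-only peaks with pileups of 12 and 30.

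The share of KO-only peaks in the windows was close to that of the whole list. In the windows 17 of 61 *Setdb1* KO peaks were KO-only, or 27.9% (18.2 to 40.2), and the background over all *Setdb1* KO peaks was 28.8%. The bodies had 7 of 33, or 21.2% (10.7 to 37.8), and the flanks 10 of 28, or 35.7% (20.7 to 54.2). These intervals overlap, and both take in the background. With the *Setdb1* KO list shortened to the length of the WT list, 2 of 27 peaks of the bodies were KO-only (7.41%), against 11.7% of the shortened list. Of the 45 WT peaks, 1 was WT-only, or 2.22% (0.393 to 11.6), against a background of 3.22%. With lists of equal length it was 3 of 45 (6.67%), against 10.9% of all WT peaks, so that the small share of WT-only peaks depended on the length of the lists. The peak lay in the *Hoxb* posterior flank, in an exon of *Ttll6*, a tubulin polyglutamylase gene (chromosome 11, 96134663 to 96134880), with a WT pileup of 19 and a fold enrichment of 5.50.

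**Figure D2:**
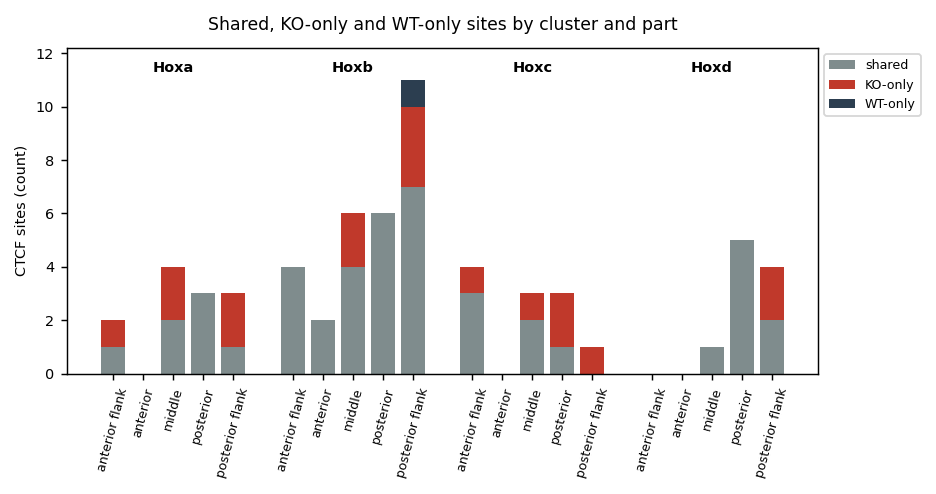
Number of CTCF sites (vertical axis, count) in each cluster by part, from the anterior flank over the anterior, middle and posterior genes to the posterior flank, stacked as shared, KO-only and WT-only. The anterior parts of *Hoxa* and *Hoxd* and the anterior flank of *Hoxd* held no site, *Hoxc* has no anterior genes, and the 7 KO-only peaks of the bodies were 5 of the middle and 2 of the posterior genes.

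By cluster, 5 of the 12 peaks of *Hoxa* in *Setdb1* KO ESCs were KO-only, against 5 among 28 in *Hoxb*, 5 among 11 in *Hoxc* and 2 among 10 in *Hoxd*. Within the bodies the counts were 2 of 7, 2 of 14, 3 of 6 and 0 of 6. The share was 28.6% (8.22 to 64.1) in *Hoxa*, 14.3% (4.01 to 39.9) in *Hoxb*, 50% (18.8 to 81.2) in *Hoxc* and 0% in *Hoxd*, with an upper bound of 39%. With so few peaks a difference between the clusters was not detectable. By part of the cluster, 0 of 2 peaks of the anterior genes, 5 of 14 of the middle genes (35.7%, 16.3 to 61.2) and 2 of 17 of the posterior genes (11.8%, 3.29 to 34.3) were KO-only. The intervals of the middle and posterior genes overlap. With group 4 counted as anterior, 2 of 4 anterior peaks (50%) and 3 of 12 middle peaks (25%) were KO-only, so that the order of these parts depended on where they were divided.

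The KO-only peaks of the bodies were weak. In *Hoxa*, one with a pileup of 17 lay between *Hoxa3* and *Hoxa4* (chromosome 6, 52186620 to 52186835), in an intron of longer *Hoxa3* transcripts. The other, with a pileup of 15, lay between *Hoxa4* and *Hoxa5* (52196811 to 52197012). In *Hoxb*, a peak with a pileup of 16 lay in an exon of *Hoxb8* (chromosome 11, 96284205 to 96284715). A peak with a pileup of 23 lay between *Hoxb6* and *Hoxb7* in an intron of *Hoxb6* (96297062 to 96297559). All 4 belong to the middle genes, which pattern the neck and trunk.

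The *Hoxc* body had the other 3. Within *Hoxc11* the pileup was 17 (chromosome 15, 102956127 to 102956465, intron). Within the first part of *Hoxc10* it was 14 (102966902 to 102967163, exon), with the summit 0.409 kb from that of the shared site upstream of this gene. Between *Hoxc6* and *Hoxc8* it was 26 (103007396 to 103007709, intron). *Hoxc10* and *Hoxc11* act in the lumbar region and hindlimb, and *Hoxc6* in the thorax.

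The 7 pileups ranged from 14 to 26, with a median of 17, against a median of 18 for all KO-only peaks. The shared sites of the bodies had *Setdb1* KO pileups of 25 to 112, so that one of the 7 exceeded the weakest shared site. The lowest WT pileup listed in the windows was 17, and a WT level below the limit of the caller at these places was not measured. A called CTCF motif was present at 0 of these 7 peaks (0%, with an upper bound of 35.4%), against 35.9% of all KO-only peaks. At the lower motif threshold 2 of the 7 had one, at *Hoxa4*-*Hoxa5* and in *Hoxb8*.

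The 101 bases around the 2 strongest of them are shown beside those of the strongest shared site of the bodies and of the site with the largest ratio in the windows, each on the strand of its best match, with the 14 bases that match best in capitals.
Hoxc6-Hoxc8, KO-only: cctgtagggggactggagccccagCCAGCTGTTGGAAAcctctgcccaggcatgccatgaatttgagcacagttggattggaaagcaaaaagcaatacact
Hoxb6-Hoxb7, KO-only: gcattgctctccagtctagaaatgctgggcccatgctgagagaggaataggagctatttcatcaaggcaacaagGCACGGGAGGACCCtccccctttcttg
Hoxb9-Hoxb13, shared: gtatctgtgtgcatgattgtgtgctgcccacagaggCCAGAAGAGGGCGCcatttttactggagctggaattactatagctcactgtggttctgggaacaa
Ttll6 intron, shared: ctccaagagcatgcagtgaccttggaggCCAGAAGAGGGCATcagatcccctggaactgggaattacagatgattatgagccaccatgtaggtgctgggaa
They lie at chr15:103007489-103007589 (plus), chr11:96297120-96297220 (minus), chr11:96223954-96224054 (minus) and chr11:96160597-96160697 (plus). The capitals of the KO-only windows fall below both motif thresholds and those of the shared windows above both. The first 3 lie within cluster bodies, where 1 of the 7 KO-only peaks, that of *Hoxa3*-*Hoxa4*, and 1 of the 26 shared sites, that of *Hoxb9*-*Hoxb13*, had over 50% repeat sequence around the summit.

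At the shared sites the *Setdb1* KO pileup was mostly the higher one. The ratio was below the median of the genome at 25 of 44 sites, against 20878 of the 41869 over all shared sites. The median ratio was 1.30 in the windows, 1.30 in the bodies and 1.26 in the flanks, against 1.36 over all shared sites. Summed over the 26 sites of the bodies, the *Setdb1* KO pileups came to 1647 and the WT pileups to 1276 (ratio 1.29, 1.199 to 1.39). Summed over the 18 of the flanks they came to 1332 and 977 (ratio 1.36, 1.25 to 1.48). The ratio of sums over all shared sites was 1.38, within both intervals. At 0 of 26 sites of the bodies and 3 of 18 of the flanks the ratio was at least 2, with a background of 9.39%. It was below 1 at 3 sites of the bodies and 1 of the flanks, with a background of 7.41%. The interval lay above 1 at 11 of the 44 sites, or 5 of the bodies and 6 of the flanks, with a background of 31.5%.

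**Figure D3:**
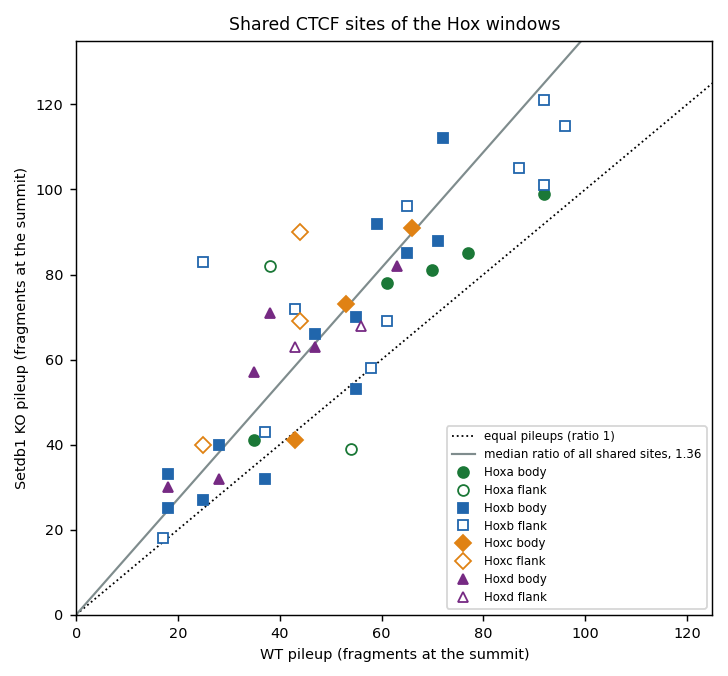
WT pileup (horizontal axis) against *Setdb1* KO pileup (vertical axis), in fragments over the summit, for the 44 shared sites of the *Hox* windows; filled symbols are sites of the bodies, open symbols those of the flanks, the dotted line is a ratio of 1 and the solid line the median ratio of 1.36. The 5 sites of the *Hoxa* body all lie below the solid line, and the flank site farthest above it has pileups of 25 and 83.

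The summed ratio of the bodies was lowest in *Hoxa* and highest in *Hoxd*, with overlapping intervals. In the *Hoxa* body, all 5 sites lay below the median of the genome, with ratios of 1.08 to 1.28. The strongest lay 50 bp from a transcription start of *Hoxa5*, a gene needed for the respiratory tract, with a pileup of 92 in WT and 99 in *Setdb1* KO (ratio 1.08, 0.802 to 1.45). The site at the promoter of *Hoxa10*, a gene of the lumbar axis and the uterus, had 77 and 85 (1.10, 0.801 to 1.52). The site at *Hoxa7* had 70 and 81 (1.16, 0.830 to 1.62). The site between *Hoxa6* and *Hoxa7* had the largest ratio of this body, with 61 and 78 (1.28, 0.903 to 1.82). Each of these intervals takes in 1, and each also takes in the median of the genome. The fifth, between *Hoxa11* and *Hoxa13*, had 35 and 41. Summed over the body, the ratio was 1.15 (0.987 to 1.33), and its upper bound was below the ratio of sums over all shared sites.

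In the *Hoxd* body, all 6 sites had a higher pileup in *Setdb1* KO. The site with the largest ratio of any body lay in an exon of *Hoxd10*, which acts in the hindlimb and in lumbar motor neurons, with 38 fragments in WT and 71 in *Setdb1* KO (1.87, 1.24 to 2.85). The site between *Hoxd8* and *Hoxd9* was the strongest, with 63 and 82 (1.30, 0.926 to 1.84). The site between *Hoxd4* and *Hoxd8* had 47 and 63 (1.34, 0.904 to 2.00). The lowest ratio was that of the site between *Hoxd12* and *Hoxd13*, with 28 and 32 (1.14, 0.667 to 1.97). Between *Hoxd10* and *Hoxd11* the pileups were 35 and 57, and at *Hoxd9* 18 and 30. The ratio over the body was 1.46 (1.23 to 1.74). This interval overlaps that of *Hoxa* and takes in the ratio of the genome.

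The *Hoxb* body, the longest, had 12 shared sites with a summed ratio of 1.31 (1.17 to 1.47). The strongest lay between *Hoxb9* and *Hoxb13*, with 72 in WT and 112 in *Setdb1* KO (1.56, 1.15 to 2.12), and 50.5% of its surrounding sequence was repeat. The site at the promoter of *Hoxb5* had 59 and 92 (1.56, 1.11 to 2.20). The third, in an exon of the noncoding gene *Gm53* between *Hoxb9* and *Hoxb13*, had 71 and 88 (1.24, 0.896 to 1.72). The lowest ratio was that of the site between *Hoxb4* and *Hoxb5*, with 37 and 32 (0.865, 0.522 to 1.43). The site in *Hoxb3* had the largest ratio here, with 18 and 33 (1.83, 1.00 to 3.46). The pileups of the other 7 sites ranged from 18 to 65 in WT and from 25 to 85 in *Setdb1* KO.

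The *Hoxc* body had 3 shared sites, the fewest. Upstream of *Hoxc10* the pileups were 66 in WT and 91 in *Setdb1* KO (1.38, 0.993 to 1.92). Between *Hoxc8*, which acts in motor neurons of the forelimb, and *Hoxc9* they were 53 and 73 (1.38, 0.954 to 2.00). Between *Hoxc5* and *Hoxc6* they were 43 and 41 (0.953, 0.606 to 1.50). The summed ratio was 1.27 (1.02 to 1.56). No interval of a single shared site in this body lay apart from 1 or from the median of the genome.

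**Figure D4:**
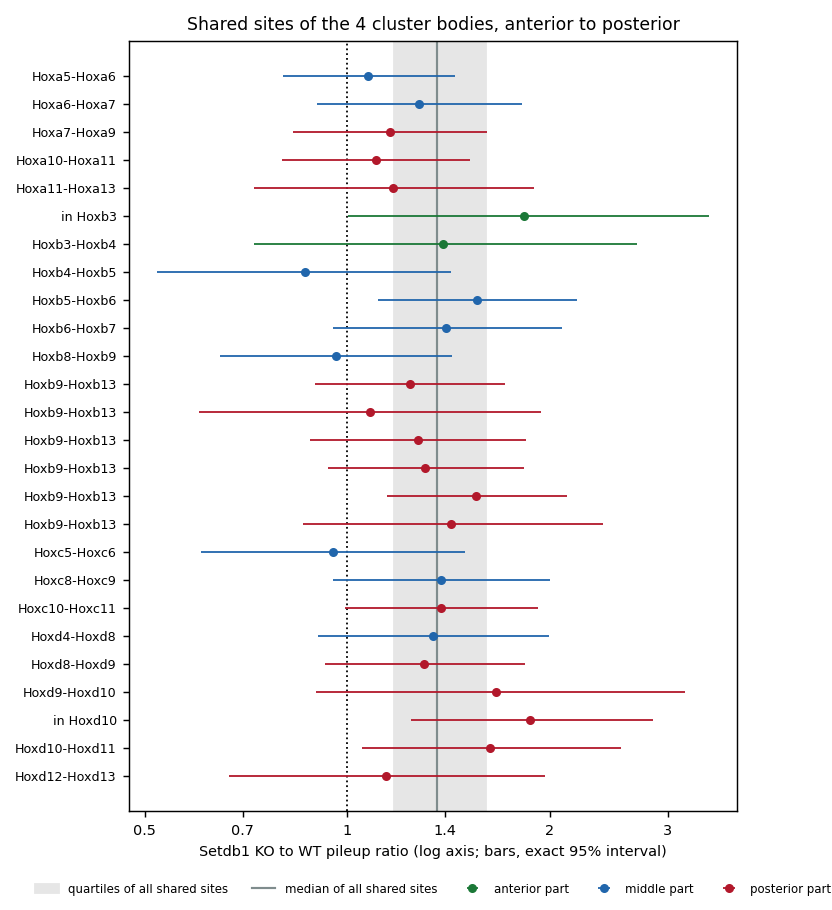
Ratio of the *Setdb1* KO to the WT pileup (horizontal axis, log scale) at the 26 shared sites of the cluster bodies, ordered by cluster and from anterior to posterior; bars are exact 95% intervals, colours the part of the cluster, the grey band the quartiles and the grey line the median of all shared sites of the genome. All 26 bars cross the line of the median, and 5 of them lie wholly above 1.

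By part, the median ratio was 1.28 over the 9 shared sites of the middle genes and 1.30 over the 15 of the posterior genes, with 1.21 (1.07 to 1.36) and 1.33 (1.21 to 1.46) as ratios of sums. The 2 anterior sites, both at *Hoxb3*, had 36 fragments in WT and 58 in *Setdb1* KO together (1.61, 1.05 to 2.51). The 3 intervals overlap. The 3 sites of the bodies with a ratio below 1 were all of middle genes, at *Hoxb4*-*Hoxb5*, *Hoxb8*-*Hoxb9* and *Hoxc5*-*Hoxc6*. Averaged over the shared sites of each cluster window, the background of the input in *Setdb1* KO was 0.888 to 1.14 times that of WT. At single sites the backgrounds differed more, in both directions. At *Hoxb4*-*Hoxb5*, a site with a ratio below 1, the background was 8.70 in *Setdb1* KO and 2.65 in WT. At the *Hoxb* flank site beside the start of *Ttll6* it was 2.90 and 8.85.

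The direction of the motifs was counted along the bodies. All 6 shared sites of middle genes with a called motif had it in the direction of *Hox* transcription: 1 in *Hoxa*, 2 in *Hoxb*, 2 in *Hoxc* and 1 in *Hoxd*. Of the 9 of posterior genes, 3 had it in that direction and 6 in the opposite one. The 4 posterior motifs of *Hoxb*, all between *Hoxb9* and *Hoxb13*, were opposite, so that they and the 2 motifs at *Hoxb8*-*Hoxb9* and *Hoxb5*-*Hoxb6* pointed away from each other. The 1 called motif of the anterior genes, in *Hoxb3*, was also opposite, so that it and the same 2 motifs pointed towards each other. The posterior motifs of *Hoxa* and *Hoxd* were 3 in the direction of transcription and 2 opposite, so that the excess of opposite motifs was that of *Hoxb*. At the lower threshold, 7 of 9 middle and 5 of 12 posterior motifs had the direction of transcription, and outside *Hoxb* 5 of 8 posterior motifs did. These are counts over neighbouring sites of the same clusters and were not tested.

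A CTCF motif was called at 16 of the 26 shared sites of the bodies, or 61.5% (42.5 to 77.6), and at 65.0% of all shared peaks. The motifs of the bodies held CpG more often than those of the genome. Of the 16, 13 had CpG at position 12, or 81.2% (57.0 to 93.4), against 38.7% of all shared peaks with a motif. At position 2 it was 5 of 16, or 31.2% (14.2 to 55.6), against 5.29%. In both cases the interval of the bodies lay above the value of the genome. The bodies are CpG-rich around their sites, with a median of 6 CpG in 101 bp against 1 in the genome, and 10 of 26 shared sites lay within 1 kb of a transcription start (38.5%, 22.4 to 57.5), against 14.1% of all. Repeat sequence covered over 50% of the surroundings of 3.85% of them (0.682 to 18.9), against 24.7% of all.

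**Figure D5:**
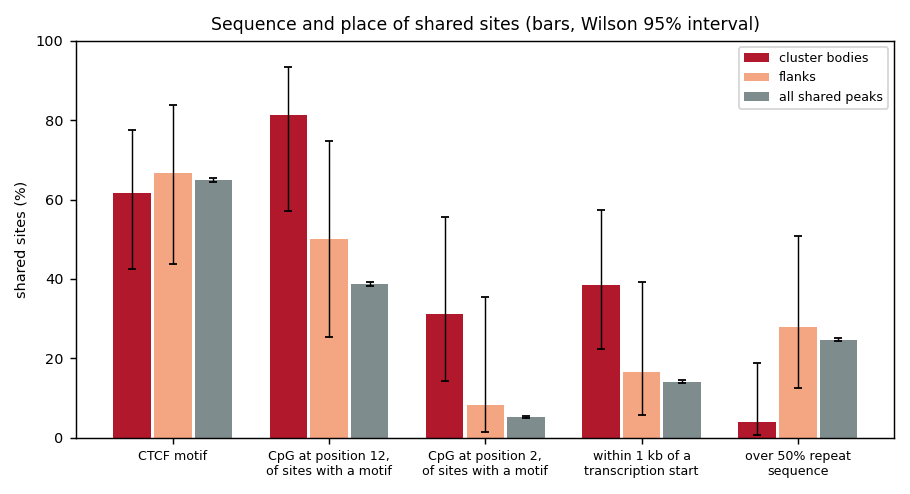
Percent of shared sites (vertical axis) with a CTCF motif, with CpG at position 12 or 2 of the core among those with a motif, within 1 kb of a transcription start and with over 50% repeat sequence, for cluster bodies, flanks and all shared peaks; bars are Wilson 95% intervals. The bodies stand at 81.2% for CpG at position 12 against 38.7% of all, and at 3.85% for repeat sequence against 24.7%.

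A set of the genome like the bodies in these features was taken after the values were seen, namely the 7395 *Setdb1* KO peaks with at least 4 CpG and under 50% repeat sequence in the 101 bp around the summit. It had a KO-only share of 17.5%, a median ratio of 1.28 and CpG at position 12 in 73.3% and at position 2 in 25.4% of the motifs of its shared sites. The values of the *Hox* bodies were 21.2%, 1.30, 81.2% and 31.2%. The intervals of the 3 shares take in the values of this set. CpG within the motif counts towards the 4, so that the shares at positions 12 and 2 in part restate how the set was chosen. A motif was called at 21.0% of the KO-only peaks of this set. The interval of the 0 of 7 in the bodies takes in this value too.

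The 3 largest ratios of single sites lay in the flanks, although 10 of the 18 flank sites were below the median of the genome. The shared site with the largest ratio in the windows lay in an intron of *Ttll6*, in the *Hoxb* posterior flank (chromosome 11, 96160465 to 96160892), with 25 fragments in WT and 83 in *Setdb1* KO (3.32, 2.101 to 5.42). In an intron of the noncoding gene *Halr1*, in the *Hoxa* anterior flank (chromosome 6, 52107379 to 52107918), there were 38 and 82 (2.16, 1.45 to 3.26). In the *Hoxc* anterior flank, 55.8 kb from *Hoxc4* (chromosome 15, 103092482 to 103093119), there were 44 and 90 (2.05, 1.41 to 3.00). All 3 had a called motif and over 50% repeat sequence around the summit, at 84.2%, 87.1% and 56.4%.

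Other flank sites were as strong with smaller ratios. The strongest of the windows lay between *Calcoco2*, an autophagy receptor gene, and *Ttll6*, in the *Hoxb* posterior flank, with 92 fragments in WT and 121 in *Setdb1* KO (1.32, 0.995 to 1.74). The strongest of the *Hoxb* anterior flank lay towards *Skap1*, which encodes an adaptor of T cell signalling, with 92 and 101 (1.10, 0.819 to 1.47). In the *Hoxd* posterior flank, the site in an exon of *Evx2*, a homeobox gene beside *Hoxd13*, had 56 and 68 (1.21, 0.840 to 1.76). In the *Hoxa* posterior flank, 9.82 kb from *Hoxa13* and 3.09 kb from *Hottip*, the direction was the other one, with 54 in WT and 39 in *Setdb1* KO (0.722, 0.466 to 1.11). Its interval takes in 1 and lies below the median of the genome.

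Of the 10 KO-only peaks of the flanks, that with the highest pileup lay in the *Hoxb* posterior flank, 10.5 kb from *Calcoco2* (chromosome 11, 96122096 to 96123040), at 35 fragments. In the *Hoxa* anterior flank, 32.8 kb from the cluster, it was 34 (chromosome 6, 52122672 to 52123070). In the *Hoxa* posterior flank, 25.9 kb from the homeobox gene *Evx1*, it was 30 (52344080 to 52344374). These 3 were stronger than each of the 7 KO-only peaks of the bodies. In the *Hoxd* posterior flank, 2.17 kb from *Evx2*, the pileup was 23 (chromosome 2, 74661560 to 74662057). It was 21 in the *Hoxc* anterior flank, towards the DNA glycosylase gene *Smug1* (chromosome 15, 103113137 to 103113407), and 17 in the *Hoxc* posterior flank (102901119 to 102901313). A motif was called at 3 of the 10, all in repeat sequence.

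The run CCAGAAGAGGG was read from the 5 flank motifs shown, which were picked as KO-only or for their large ratios, so that its values in the *Hox* windows in part restate that choice. Among all *Setdb1* KO peaks 16.4% had it in their best match. In the *Hox* windows there were 9 such peaks, 8 of them in the flanks. Of these, 3 were KO-only, all among the 5 picked, and KO-only peaks made up 33.9% of all *Setdb1* KO peaks with the run and 27.8% of those without it. The 6 shared sites had ratios of 1.47 to 3.32, and the 4 that were not picked had 1.47, 1.48, 1.56 and 1.57. The 38 shared sites without the run had a median of 1.26. Over all shared peaks the medians were 1.55 with and 1.33 without it. Repeat sequence covered over 50% of the surroundings of 7 of the 9, and of 8514 of the 9780 such peaks in the genome. Among all peaks in repeat sequence, the KO-only share was lower with the run (36.3%) than without it (44.3%), and the median ratios were 1.58 and 1.46. Among the other peaks the shares were 17.9% and 24.1%, and the median ratios 1.44 and 1.32. Sites of the bodies without it numbered 25, with a median ratio of 1.30.

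Of the 9 noncoding genes taken here, *Halr1* held a summit, that of the shared site described above. Noncoding genes outside this list that held a site were *Gm53*, *Hoxaas3*, *Hoxb3os*, *Hoxb5os* and *Hoxd3os1*, among others. The summit nearest *Hottip*, which is transcribed beyond *Hoxa13*, was 3.09 kb away in *Setdb1* KO, and that nearest *Hotairm1*, in the anterior part of *Hoxa*, was 24.6 kb away in *Setdb1* KO and 42.5 kb in WT. *Hotair*, between *Hoxc11* and *Hoxc12*, was nearest to the KO-only peak in *Hoxc11* at 8.57 kb, and in WT its nearest summit was 18.9 kb away. Of the microRNA genes, *Mir196a-1* was 3.38 kb from a shared site with 71 and 88 fragments and *Mir10a* 5.38 kb from one with 37 and 32. *Mir196a-2*, *Mir196b* and *Mir10b* were 6.36, 8.25 and 10.1 kb from their nearest *Setdb1* KO summit. These microRNAs repress *Hox* messenger RNAs.

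*Hox* proteins bind DNA with cofactors of the PBX, MEIS and PKNOX families. Within 10 kb of the 9 cofactor genes lay 33 *Setdb1* KO peaks, of which 11 were KO-only, and 22 shared pairs with a median ratio of 1.35. A distance of 10 kb or less to a KO-only peak was found for 6 of the 9 genes, for 15 of the 39 *Hox* genes and for 41.9% of all protein-coding genes. *Pknox2* had 3 among 14 peaks. *Pbx4* had 2 among 6, *Meis2* 2 among 3 and *Meis1* 2 among 2, with no WT peak near *Meis1*. The cofactor genes, up to 313 kb long, are longer than *Hox* genes, and gene length was not matched.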

How the data were processed

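The CTCF peak lists of WT and *Setdb1* KO ESCs were used, 1 library each; the other data types and libraries of the series were not analysed here. The submitters' processing notes name mm10 (GRCm38), Bowtie 1.2, Picard and MACS2 2.1.0. The authors deposited for each peak a fold enrichment, the ratio of pileup to background after a pseudocount of 1 on both, and p and q values as -log10. The deposited score is a whole number made from -log10 q, and a further deposited column is the summit offset. Total read counts are not in the lists.

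Pileup and background were solved from fold enrichment and Poisson p (tolerance 0.001 on -log10 p; 7 *Setdb1* KO peaks, none in the *Hox* windows, could not be solved). Depth limits each pileup to its counting error. Places came from GENCODE vM21. Sites were assigned by distance to coding spans. The CTCF matrix came from the 1000 shared peaks of *Setdb1* KO ESCs with the highest -log10 q outside the windows. Sites held a motif where the best score up to 50 bp from the summit passed percentile 99 (lower threshold, 95) of windows 1 kb away. Both strands were searched. Repeat sequence is the soft-masked part of the RefSeq genome. The steps were tested on simulated data, the search for motifs included. Scripts ran in Python 3.11.15 with samtools 1.23.1, pysam 0.24.0, scipy 1.17.1, pandas 2.3.3, numpy 2.4.6 and matplotlib 3.10.9.

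The members, lists and rules were chosen with earlier results of these data known. Named were the *Hox* genes by their counts (1 item is not reported here), all KO-only and WT-only peaks of the bodies, the 3 strongest shared sites and those with the highest and lowest ratio of each body, the strongest KO-only and shared site of each flank, the noncoding genes listed and up to 4 cofactors with KO-only peaks. Other sites named, the run of 11 bases and the CpG-rich set were chosen after their values were seen.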

Additional observations from a re-analysis of the deposited data

How the results depend on the processing

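No paired analysis was possible because 1 library per condition was analysed. With the *Setdb1* KO list shortened to the length of the WT list by -log10 q, the KO-only share fell to 14.3% in the windows and 7.41% in the bodies, against 11.7% over the whole list. Of the KO-only peaks of the bodies, those at *Hoxb6*-*Hoxb7* and *Hoxc6*-*Hoxc8* remained. With flanks of 50 kb, 0% of WT peaks were WT-only, since the *Ttll6* peak lay outside. At the lower motif threshold, 84.6% of the shared sites of the bodies had a motif, against 82.8% of all shared peaks. The other 38 values recomputed moved by less than counting error, taken as the 95% interval of a share and, for a median ratio, the interval of the ratio of sums over the same sites. They came from a reciprocal overlap of 50%, summits within 100 bp, -log10 q of at least 5, lists of equal length, *Setdb1* KO pileups divided by 1.36, flanks of 50 kb, WT pileups of at least 30, subtraction of the background, ratios of sums, other divisions of the clusters, nearest start codons and the lower motif threshold. These intervals are wide: among these 38, the WT-only share of the windows rose to 6.67% with lists of equal length, and the KO-only share of the anterior genes rose from 0% to 50% with group 4 among them. Depth limits single sites: a pileup of 18 against 33 gave an interval of 1.00 to 3.46.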
